A study of Mus musculus with 2 samples.

Results

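The genes described here encode the neurofilament proteins and other parts of the axonal cytoskeleton. They were Nefl, Nefm, Nefh, Ina, Mapt, Map1b, Map2, Gap43 and Stmn2, 9 of the 18194 genes that a Mouse 430 2.0 array could name, and they were read by the 21 probe sets that the array annotation pairs with one of these genes alone. Total RNA came from the cerebrum at postnatal day 14. One sample was wild-type and the other carried the spontaneous laggard (lag) mutation, and the design describes the controls as littermates. The lag mutation is a recessive splice site change in Kif14, which encodes a kinesin of dividing cells. It is carried by every cell. It arose on a mixed background of several inbred strains and was then bred into C57BL/6J, and the generation of the mice on the arrays was not given in the sources used here. Each genotype had 1 array, so no test was possible, no p-value is given and the spread between mice is unknown. Neither is it stated how many mice gave each sample.

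Neurofilaments are the intermediate filaments of neurons. They are built from a light (Nefl), a medium (Nefm) and a heavy (Nefh) chain together with alpha-internexin (Ina), and they set the calibre of myelinated axons. In development Ina and the light and medium chains come first, and the heavy chain comes later, as axons mature and are wrapped by myelin. Tau (Mapt), Map1b and Map2 bind microtubules, with tau mainly in axons, Map1b prominent in growing axons and Map2 in dendrites and cell bodies. Gap43, a protein kinase C substrate of the growth cone, and Stmn2, a stathmin that binds tubulin, are known for axon growth.

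A MAS5.0 signal is a linear intensity for a probe set, a group of short probes for 1 transcript region. Signals of different probe sets cannot be set against each other, so only the ratio between the arrays is compared between genes. A gene took the value of its brightest probe set, the one with the highest mean signal of both arrays. The background level was read from 127 probe sets of gene families such as olfactory receptors, as their 95th percentile, and was 48.7 for the wild-type and 49.5 for the mutant array. A gene counted as measured if its signal reached this level on at least 1 array, which 13899 genes did. All 9 genes did so on both arrays. Kif14 itself had signals of 6.85 (wild-type) and 0.733 (mutant), both under background, and so gives no check of the genotypes.

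Nefh had the lowest ratio of the 9 genes and the other 8 differed little between the arrays. Nefh was 1.43-fold lower in the mutant, while the other 8 all lay within 1.11-fold, with log2 ratios from -0.15 (Mapt) to 0.14 (Gap43). By the brightest probe set 5 genes (55.6%) had a lower and 4 a higher signal in the mutant, near the 48.0% lower among all measured genes. The median log2 ratio was -0.09, against 0.01 over all measured genes. None of the 9 genes differed by 2-fold. Among all measured genes 1.02% were lower and 0.763% higher by 2-fold or more. A smaller step was also counted, a signal at least 20% lower or 25% higher in the mutant, which is the same ratio taken either way. By this step 1 of the 9 genes (11.1%) was lower and none was higher. Of all measured genes 10.7% were lower and 13.0% higher by this step, so the share of the 9 genes that was lower lay near the share of all genes.

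**Figure D1:**
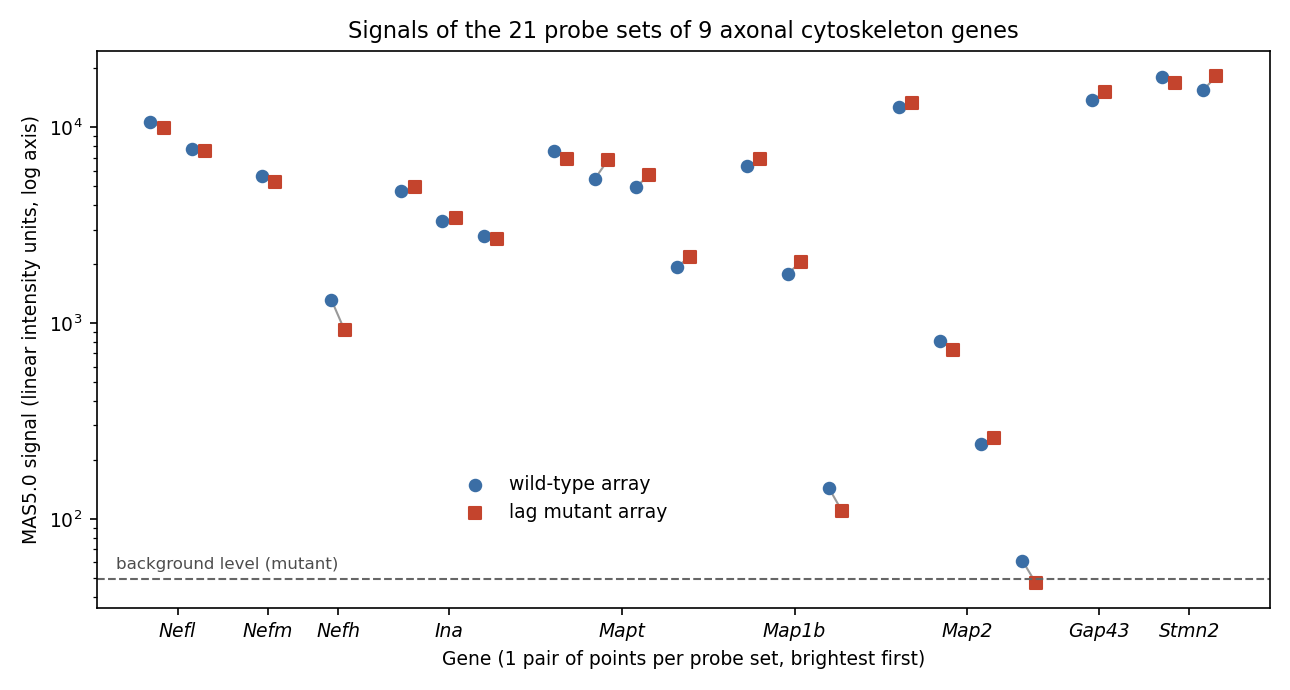
MAS5.0 signal (linear intensity, log axis) of each of the 21 probe sets on the wild-type array (blue circles) and the lag mutant array (red squares), joined by a line and ordered within a gene from brightest to dimmest; the dashed line is the mutant background level of 49.5. The widest downward step between paired points is that of Nefh, from 1313 to 919, and the widest upward step that of the second brightest Mapt probe set, from 5445 to 6784. Heights of different probe sets are not comparable.

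The heavy chain had the lowest ratio of the neurofilament genes. Nefh went from 1313 in the wild-type to 919 in the mutant, a log2 ratio of -0.52. Only 1 probe set reads Nefh, so there is no second reading of this difference. Nefm, also read by 1 probe set, had signals of 5624 and 5240.0 in the same order, with a log2 ratio of -0.10. Nefl had signals of 10603 and 9929 by its brightest probe set and of 7799 and 7547 by the other, with log2 ratios of -0.09 and -0.05. Both readings of Nefl were thus slightly lower in the mutant. The log2 ratio of Nefh was lower than that of Nefl by 0.42 and lower than that of Nefm by 0.41. How often pairs of other genes differ by as much was not tested. Nefl and Nefm are next to each other among the protein-coding genes of the mouse genome (RefSeq, GRCm38.p6), and Nefh lies elsewhere. Ina had signals of 4741 and 4976 by its brightest probe set. Its other probe sets had 3329.6 and 3448, and 2785 and 2676. The log2 ratios of Ina were 0.07, 0.05 and -0.06 in this order, on both sides of 0. The lowest of them was below the -0.05 of the dimmer Nefl probe set. Ina was thus not clearly set apart from Nefl and Nefm.

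With no replicates, the only scales for these ratios come from the arrays themselves. The measured genes were divided by mean signal into 4 groups of equal size. Nefh lay in the next to brightest of these, with mean signals from 534 to 1396, where the SD of the log2 ratio over 3474 genes was 0.289 and the central 95% of ratios ran from -0.51 to 0.48. The ratio of Nefh was at the lower edge of that range, and 2.39% of the genes in its group had a lower one. The other 8 genes lay in the brightest group, where the SD was 0.255 over 3475 genes and the central 95% ran from -0.37 to 0.41. Of the genes in that group, 63.1% had ratios no larger in size than the largest of those 8. Probe sets of the same gene disagreed by an SD of 0.196 on the log2 scale, pooled over 996 genes with at least 2 probe sets of that brightness. All 8 ratios were smaller in size than this SD. These spreads are between genes or probe sets of the same arrays and hold nothing of the variation between mice.

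**Figure D2:**
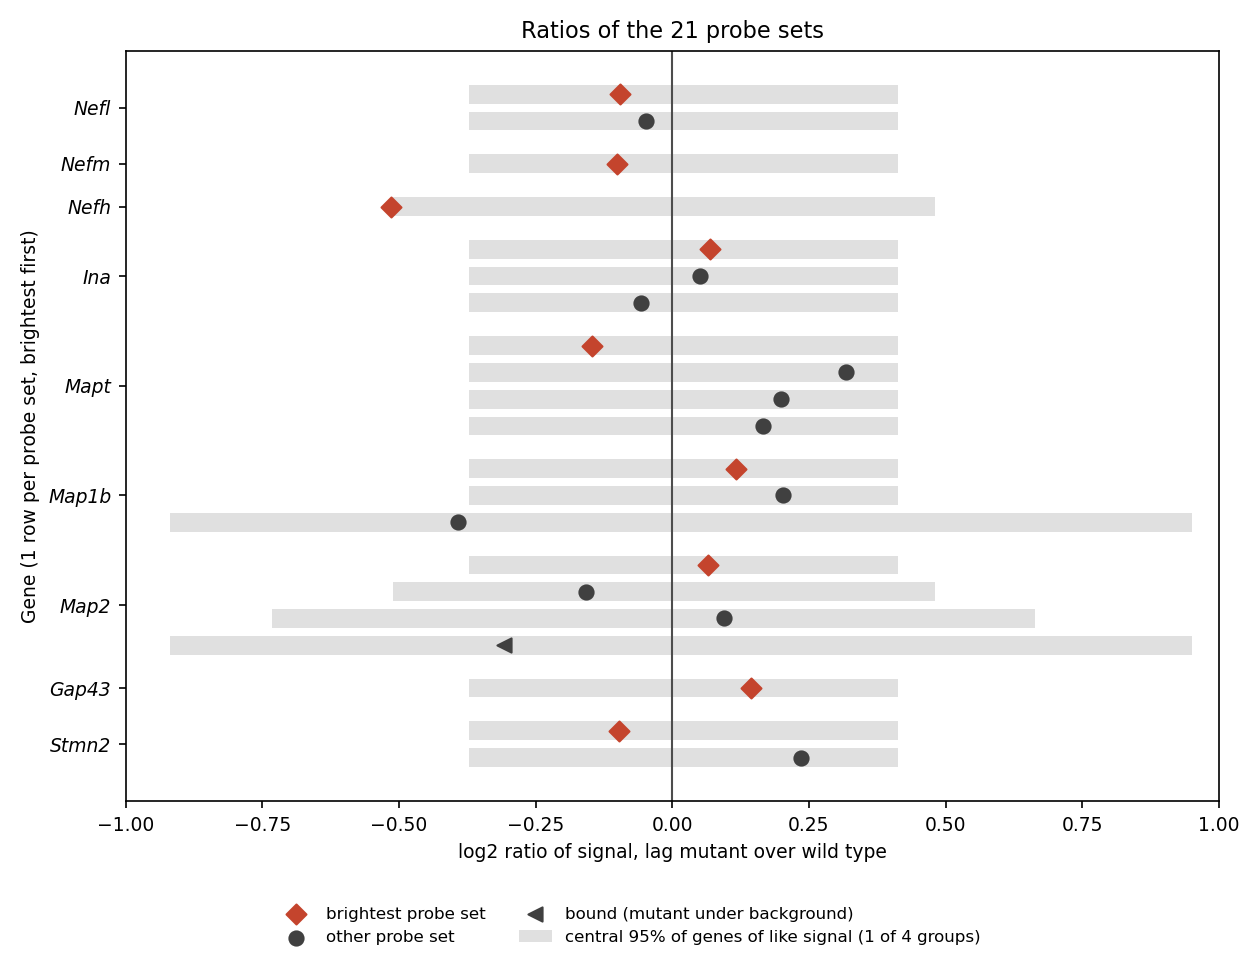
Log2 ratio (lag mutant over wild-type signal) for each of the 21 probe sets (red diamonds, brightest of a gene; dark circles, others; triangle, a bound where the mutant signal was under background). Each grey bar is the central 95% of ratios of measured genes in the same of 4 signal groups. Nefh lies at the lower edge of its bar, at -0.52, and the rows of Mapt, Map1b, Map2, Ina and Stmn2 hold points on both sides of 0.

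For tau and the other microtubule-binding proteins the direction depended on the probe set. The brightest probe set of Mapt went from 7614 in the wild-type to 6880.2 in the mutant, 1.11-fold lower. Its other 3 probe sets had higher signals in the mutant: from 5445 to 6784, from 4954 to 5684 and from 1942 to 2180.4, with log2 ratios of 0.32, 0.20 and 0.17. The mean log2 ratio of Mapt was 0.13 ± 0.20 (SD over 4 probe sets), opposite in sign to the value of its brightest one. Where each probe set lies in the Mapt transcripts, and so whether isoforms differed, was not analysed here. Map1b was higher by both of its bright probe sets, from 6346 to 6879 and from 1791 to 2060, with log2 ratios of 0.12 and 0.20. Its remaining probe set was dim, at 143 and 109, with a log2 ratio of -0.39, and 13.4% of genes in the dimmest signal group had a lower ratio than that. By its brightest probe set Map2 went from 12717 to 13301, a log2 ratio of 0.06. Its other probe sets were dimmer, going from 815 to 730.3, from 243 to 259 and from 61.3 to 47.3. The last had a mutant signal under background and was lower by at least 1.24-fold. The mean over probe sets, with that signal raised to background, was -0.02 ± 0.32 (SD over 3 probe sets) for Map1b and -0.08 ± 0.19 (SD over 4 probe sets) for Map2.

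For the genes of axon growth, Gap43 was slightly higher and Stmn2 was lower by one probe set and higher by the other. The single probe set of Gap43 went from 13751 in the wild-type to 15203 in the mutant, 1.11-fold higher, the highest ratio of the 9 genes. In the brightest signal group 80.9% of genes had a lower ratio. Stmn2 had signals of 17992 and 16820 by the brightest probe set, a log2 ratio of -0.10, and of 15528 and 18284 by the other, a log2 ratio of 0.24. These readings of the same RNA lay on opposite sides of 0. With quantile normalization of the arrays the log2 ratio of the brightest Stmn2 probe set was -0.005. Over all 9 genes, 10 of the 21 probe sets were lower and 11 higher in the mutant, and their median log2 ratio was 0.05. Of the 6 genes with several probe sets, Nefl alone had every one on the same side of 0. For 4 of the 6, Mapt, Map1b, Map2 and Stmn2, the mean over probe sets had the opposite sign to the brightest probe set.

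Other filament genes of neural cells were on average higher in the mutant. Of 8 such genes, none differed by 2-fold, 3 were at least 25% higher and none was at least 20% lower, with a median log2 ratio of 0.22. Among all measured genes 13.0% were at least 25% higher and 10.7% at least 20% lower. Vim, the intermediate filament gene of glia and immature cells, had signals of 2739 and 4299.7, 1.57-fold higher, and its 3 probe sets had log2 ratios from 0.46 to 0.75. Gfap, the filament gene of astrocytes, had signals of 156 and 274 by its brightest probe set, while its other probe sets had log2 ratios of 0.24 and -0.01. Prph, which encodes peripherin of peripheral and brainstem neurons, had signals of 167 and 212 by its brightest probe set. Its other probe set had 21.2 and 95.4, with the wild-type signal under background. Gfap and Prph were named after their values were seen. Lmnb1, at 704 and 699, and Synm, at 577 and 539, differed little.

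Genes that work with tau, Map1b and Map2 on microtubules differed little as a group. Of 25 further microtubule-associated protein genes, 2 were at least 20% lower and 2 at least 25% higher, with a median log2 ratio of -0.04, which ran from -0.16 to 0.02 under the alternatives. Mapre2, which encodes a protein of microtubule ends, had signals of 20076 and 19611. Dclk1, a doublecortin-like kinase, had 7852 and 8426 by the brightest of 9 probe sets, whose log2 ratios ran from -1.02 to 0.54. Map4 had the highest ratio of this list, from 3321 to 5492 by its brightest probe set, but its next brightest went from 2763 to 2842 and the one after from 2131 to 2142; it was named after its values were seen. The remaining stathmin genes were all slightly lower by their brightest probe set, Stmn1 from 20028 to 17482, Stmn3 from 23200.1 to 21326 and Stmn4 from 8314 to 7373, though Stmn1 had another probe set with a log2 ratio of 0.32. Their median log2 ratio was -0.17, and -0.09 with quantile normalization of the arrays. Of 18 other growth cone genes, 14 were lower and 4 higher by the brightest probe set, against 48.0% lower among all measured genes. In this list 1 gene was past the smaller step each way, and the median was -0.14. That median was -0.07 with quantile normalization, -0.03 with the mean over probe sets and 0.05 with the probe set of largest increase. Among the brightest, Tmsb10, which binds actin monomers, went from 20377 to 17655, but its other 3 probe sets had log2 ratios of 0.37, 0.05 and 0.01. Dpysl2, a semaphorin mediator that binds tubulin, went from 19829 to 17747.

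Genes of the membrane skeleton beneath the axon surface, which are spectrins, ankyrins, adducins, Epb41-like proteins and large linkers, had a median log2 ratio of -0.10 over 16 genes. Of these, 1 was at least 20% lower, Epb41l2 from 2101 to 1545, named after its values were seen, and none was at least 25% higher. Sptbn1 had signals of 16272 and 14129, Sptan1 of 11388 and 10052, and Ank2 of 9945 and 10472. Kinases and phosphatases that act on tau, neurofilaments and microtubule-associated proteins had a median of 0.05 over 20 genes, which ran from -0.16 to 0.16 under the alternatives. Gsk3a, a tau kinase, was 2.38-fold higher in the mutant, from 1582 to 3772, by its single probe set, and the other 19 genes all lay within 2-fold. Its relative Gsk3b had signals of 4445 and 4869 by the brightest of 6 probe sets, whose log2 ratios ran from -1.09 to 0.13. Cdk5, a kinase of neurofilaments and tau, had 2408 and 2712 by its brightest probe set. Its other probe set had 413 and 713, a log2 ratio of 0.79. Gsk3b and Cdk5 were named after their values were seen. Of 9 genes for the turnover of neurofilaments and tau, none was past the smaller step and the median was 0.13. That median was 0.02 with the mean over probe sets. It was -0.06 both with the largest decrease and without probe sets whose names carry _s, _x or _a. Trim2, a ubiquitin ligase of the light chain, went from 6954 to 8131 by its brightest probe set and from 6235 to 5825 by the next. Of 14 genes for RNA-binding proteins with known targets among the 9 genes, none was past that step, with a median of 0.07 that ran from -0.10 to 0.17 under the alternatives. Hnrnpk had signals of 11810.1 and 12533.

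**Figure D3:**
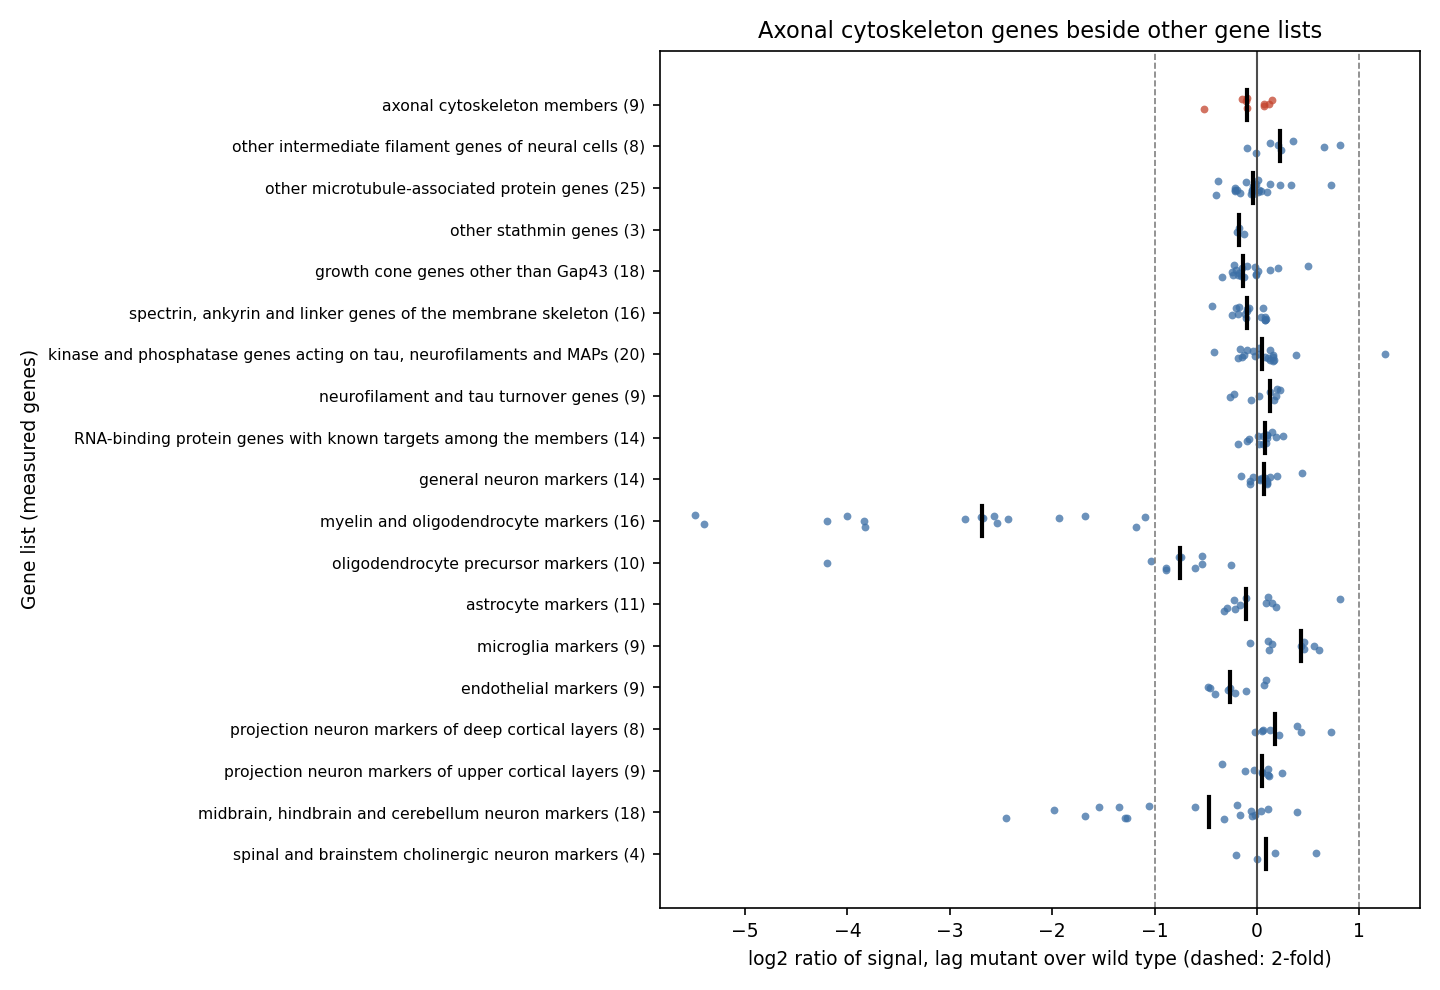
Log2 ratio (lag mutant over wild-type signal) of measured genes (points; number in parentheses) of the axonal cytoskeleton genes (red) and 18 other lists (blue); black bars are medians and dashed lines mark 2-fold. The axonal cytoskeleton genes lie around a median of -0.09, while myelin and oligodendrocyte markers lie around -2.68.

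The same arrays held large differences in the cells that ensheath axons. By the brightest probe set, all 16 measured myelin and oligodendrocyte markers were lower by 2-fold or more, around a median log2 ratio of -2.68, and their summed signal went from 39889 in the wild-type to 3062 in the mutant. Among 14 general neuron markers none differed by 2-fold, the median was 0.07 and the summed signals were 109585 and 114197. The summed signals of the 9 axonal cytoskeleton genes were 80703 and 80147, of which Nefh made up 1313 and 919. In all such sums the brightest probe sets weigh most. Since signals of different probe sets are not comparable, the part of a gene in a sum is not its share of the RNA. Precursors of oligodendrocytes had a median of -0.75 over 10 markers, among them Gpr17, which was also counted with the myelin markers. Astrocytes had a median of -0.11 over 11, microglia of 0.43 over 9 and endothelial cells of -0.27 over 9. Deep cortical layer markers had a median of 0.17 over 8 genes and upper layer markers of 0.05 over 9. In a piece of tissue, fewer cells of a type and less RNA per cell cannot be told apart.

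Most genes listed as markers of brain regions behind the cerebrum were also lower, but the brightest of the list were not. Of 18 measured midbrain, hindbrain and cerebellum markers, 15 were lower in the mutant and 8 at least 2-fold lower. The median log2 ratio was -0.47. Among all measured genes 48.0% were lower and 1.02% at least 2-fold lower. Slc6a3, the dopamine transporter gene, had signals of 402 and 102, and Pcp2, a Purkinje cell gene, of 271 and 36.2, the latter under background. The summed signal of this list was 28474 and 28621. Most of it came from Pcp4 (12589 and 12931), Zic1 (4938 and 6469) and Calb1 (4491 and 4826). The sum therefore says little about the other genes of the list. En1 and Hoxb5 were under background on both arrays. Of the 6 markers of spinal and brainstem cholinergic neurons on the arrays, Chat and Slc5a7 were under background on both. The other 4 had a median of 0.09 and summed signals of 915 and 1144. Most of these sums came from Isl1 (399 and 597) and Ecel1 (396 and 446). Calcb (70.9 and 61.6) and Slc18a3 (49.6 and 39.7) lay near background. The part of these markers, or of the myelin markers, in the ratio of Nefh was not tested.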

How the data were processed

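The authors hybridised cerebrum RNA to Affymetrix Mouse Genome 430 2.0 arrays and calculated intensities in MAS5.0 under its default setting, scaled globally. The deposited intensities are linear and come without detection calls, and the target of the scaling was not given in the sources used here. Labelling started from the 3′ end of transcripts, so signals depend on probe position. Of 45101 probe sets, 34958 were paired with 1 gene, and 34754 of their symbols were updated through the RefSeq table of GRCm38.p6. Each log2 ratio is the mutant over the wild-type signal, with signals under background raised to it. Background families were olfactory, vomeronasal and taste receptors and keratin-associated proteins.

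The members and the 18 other lists were chosen with earlier results of these data known. Some genes, among them Gpr17, Gfap, Uchl1 and Elavl4, were shared between lists. Listed genes without a probe set of their own were not analysed here. All 9 genes are given. From other lists, genes past 2-fold or of highest signal could be named, and the text gives some of them. Further genes were named after their values were seen. Samples were grouped by the genotype label. The 2 arrays limit the precision. Scripts were tested on simulated data. Python 3.11.15, numpy 2.4.6, pandas 2.3.3 and matplotlib 3.10.9 were used. Alternatives changed the probe set, background level and scaling.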

Additional observations from a re-analysis of the deposited data

How the results depend on the processing

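No paired analysis was possible because only 1 array was made of either genotype. Nefm, Nefh and Gap43 have 1 probe set each, above every background level, so only the 2 rescalings could move them: to -0.12 and -0.17, -0.51 and -0.58, and 0.19 and 0.08 (quantile normalization, then scaling to the general neuron markers). Nefl ranged from -0.16 to -0.05. With the mean over probe sets Mapt was 0.13. With the probe set of largest decrease Map1b was -0.39 and Map2 -0.31, Ina was -0.06, and 8 of the 9 genes were lower. With the probe set of largest increase Mapt was 0.32 and Stmn2 0.24, and 3 genes were lower. The median of the 9 ranged from -0.16, scaled to the general neuron markers, to 0.09, with the largest increase.
With the largest decrease, 300 genes were at least 2-fold and 2752 at least 20% lower, and the kinase median was -0.16. With the largest increase, 182 genes were at least 2-fold and 3069 at least 25% higher; medians were -2.11 for myelin, -0.50 for precursors, 0.14 for astrocytes and 0.41 for deep layers. Without the probe sets whose names carry _s, _x or _a the astrocyte median was 0.087. Taking the 90th percentile as background, 174 genes were at least 2-fold higher. At the 99th, 74 were lower and 31 higher by 2-fold, 986 and 929 by the smaller step, and medians were -2.40 for myelin and 0.38 for cholinergic neurons. With no level, 980 were lower and 1232 higher by 2-fold, 2969 and 3815 by the smaller step, and medians were -3.13 for myelin and -0.76 for midbrain, hindbrain and cerebellum. The medians of 9 of the 18 other lists turned sign in at least 1 alternative, among them growth cone, turnover, kinase, RNA-binding, astrocyte and general neuron genes. The choice of probe set by its ratio shifts all genes by construction, to medians of -0.07 and 0.10. Other causes were not tested. In the other 267 of 297 pairs of result and alternative, the value moved by less than 0.196, the SD between probe sets, or the count by less than 1.5 times. Some of these pairs could not have moved further. Scaling to the general neuron markers shifts ratios of signals above background by 0.07, and the background levels leave the brightest probe sets of the 9 genes unchanged. The 267 is therefore no measure of stability.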
